A study of Mus musculus with 5 samples.

Results

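The Wnt ligands, their Frizzled receptors and the secreted Sfrp, Dkk and Rspo modulators were followed through RNA sequencing of sorted cells from the mouse pelvis-kidney junction. Members were all rows of the deposited gene table whose name begins with Wnt, Fzd, Sfrp, Dkk or Rspo followed by a digit, which gave 34 of 18044 genes. They comprise 15 Wnt ligands, 10 Frizzled receptors, 4 Sfrp genes, 3 Dkk genes and 2 Rspo genes. A mean of at least 5 normalized reads over the libraries, the filter used for testing, was reached by 31 of them. The filter left out Wnt2, Wnt3 and Wnt7a.

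The junction is the place where the renal pelvis joins the kidney. It was dissected from wild-type C57BL/6 embryos at E18.5, the junctions of all embryos were pooled and dispersed with collagenase, and cells were stained with an antibody against the ion channel HCN3 and sorted. The series has 2 libraries labelled HCN3-positive, which the submitters call pacemaker cells of the urinary tract, and 3 labelled HCN3-negative, which are sorted junction cells without HCN3 staining according to their label. All groups share the same strain, age and handling, and no genotype or treatment separates them. The labels do not say whether replicates came from separate pools, so every p below measures only the spread between these libraries, which may be technical.

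Reads assigned to genes numbered 24588864 to 39034478 a library. Libraries are called positive 1 and 2 and negative 1, 2 and 3 after their labels. Levels of genes are normalized counts throughout, that is, each read count over its library's size factor, and 1 read was worth 0.742 to 1.41 of them. Hcn3 itself was at 0 and 44.5 in positive 1 and 2 and at 103, 32.2 and 41.9 in negative 1, 2 and 3. Its transcript thus did not follow the labels. The deposited table compares the libraries in another division than the labels. Which of these divisions is that of the sort, and whether any label was exchanged, cannot be told from the files, so every direction by label rests on the labels as given. Its fold equals, in 100% of its rows, the mean of the libraries labelled positive 2, negative 1 and negative 3 over the mean of those labelled positive 1 and negative 2. The latter pair is called the first set below and the other 3 libraries the second set. The first set had high levels of leukocyte genes: 14 of 15 marker names of leukocytes and macrophages were in the table (Adgre1 only under its older name Emr1), none was at 0 in any library, and their sum was 569993 and 672250 in the first set against 1287 to 2619 in the second. Markers of renal stroma and fibroblasts, 11 of 11 in the table, summed to 12311 and 11772 in the first set against 101222 to 229955 in the second. The 9 smooth muscle markers summed to 6538 and 4450.4 against 24511 to 132204.

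Wnt proteins are secreted, lipid-modified signals. They bind Frizzled receptors together with the co-receptors Lrp5 and Lrp6, which stabilizes beta-catenin and switches on genes bound by TCF and LEF factors. Some Wnt ligands instead act through Ror and Ryk receptors and the planar cell polarity proteins. Sfrp proteins bind Wnt ligands outside the cell, Dkk1 and Dkk2 bind the Lrp co-receptors, and R-spondins raise the amount of Frizzled receptor at the surface. In the developing kidney and ureter Wnt signals pass between the branching epithelium and the surrounding mesenchyme.

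**Figure D1:**
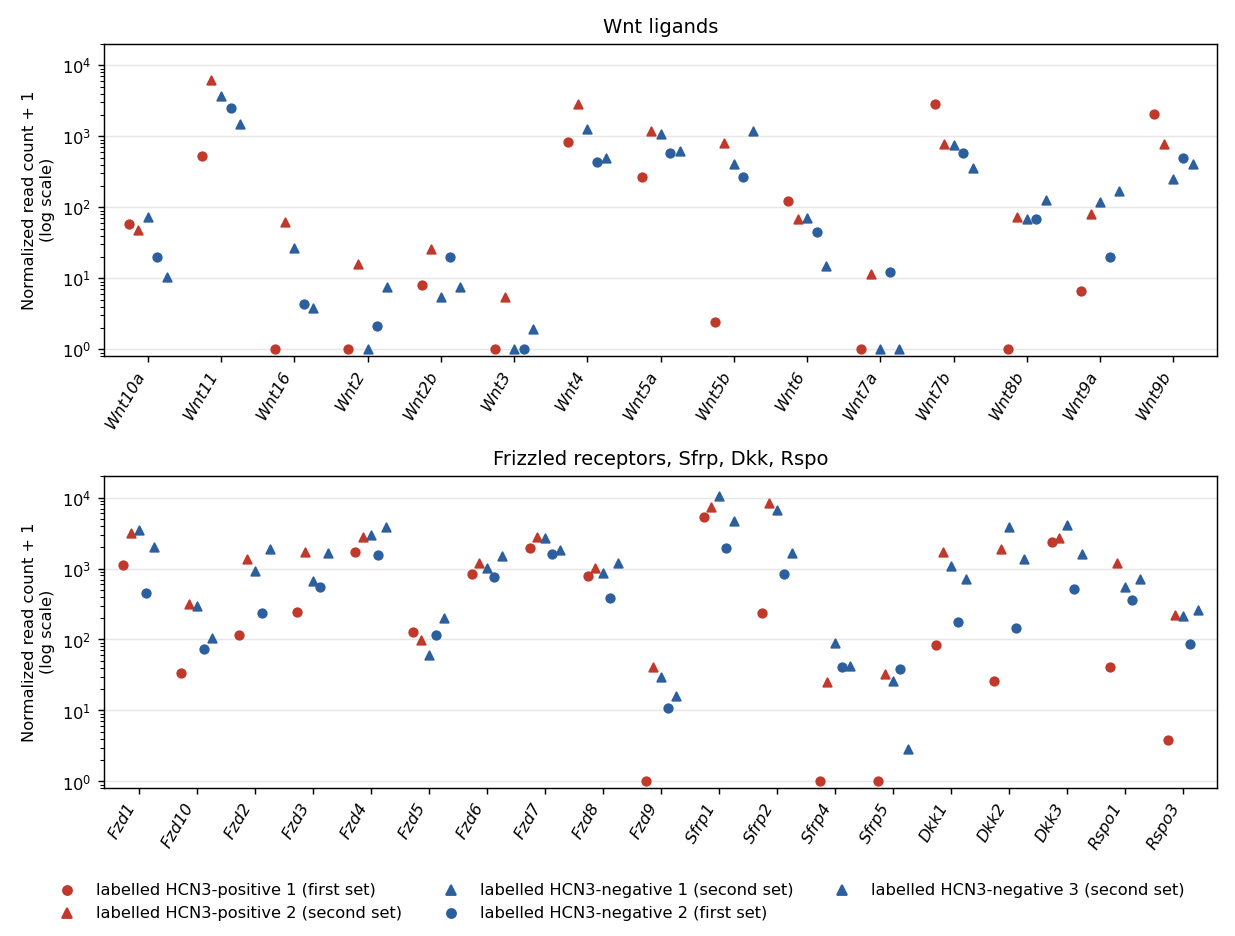
Level of each of the 34 genes as normalized count plus 1 on a log scale (vertical axis), with genes by role along the horizontal axis, in each library. Each point is 1 library, red for the label HCN3-positive and blue for HCN3-negative, circles for the first set and triangles for the second. The red circle, the library labelled positive 1, is alone the lowest of the 5 for 17 genes, is at 0 together with other libraries for 3 more (Wnt2, Wnt3 and Wnt7a), and lies far above the others for Wnt7b and Wnt9b.

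By label, none of the 31 genes tested passed. Of these, 13 had a log2 fold change above 0 (47.5% of all 16579 genes tested) and 18 below (52.5%), labelled positive over labelled negative. The median was -0.35, beside -0.03 over all genes tested. This balance turned in the count models, with 19 members above 0 and 12 below in both edgeR (median 0.18) and DESeq2 (median 0.15). At an adjusted p of 0.05 in limma, 0 members were higher and 0 were lower, and 0% of all genes tested were called in either direction. Only Wnt9b had an unadjusted p under 0.05 in limma, which is 1 of 31 members beside 0.947% of all genes. With edgeR and with DESeq2 on the recovered reads, 0 members were called and 2 had an unadjusted p under 0.05. The median rested on single libraries: it was 0.95 without the library labelled positive 1 and -1.79 without the library labelled positive 2. Without positive 1 the filter let through 33 members, and over the 31 tested above the median was 0.92.

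In the division of the authors' deposited table, every member that passed was higher in the second set. The authors' deposited table gives an adjusted p under 0.05 to 6 of 34 members, which are Fzd1, Fzd2, Dkk1, Dkk2, Wnt9a and Rspo3, where 6.09% of all genes passed in that direction. In the opposite direction, higher in the first set, it gives 0 members, where 8.1% of all genes passed. A limma fit of the same division called 7 of 31 members higher in the second set (9.88% of all genes tested) and 0 higher in the first set (10.6%). These were Dkk1, Dkk2, Fzd1, Fzd2, Fzd4, Sfrp2 and Wnt9a. Each library of the second set exceeded each library of the first for 16 of 31 members, beside 26.1% of all genes, and the reverse held for 0 members, beside 23.5%. The log2 fold change, second set over first, was above 0 for 25 members (53.5% of all genes) and below 0 for 6 (46.5%), with a median of 1.52 for the members and 0.07 for all genes tested. An unadjusted limma p under 0.05 was reached by 15 members, beside 33.4% of all genes.

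The count of members called higher in limma at an adjusted p under 0.05, 7 with all libraries, depended on which libraries entered. It was 3 without the library labelled positive 1 (Dkk2, Fzd1 and Fzd2), 3 without positive 2 (Dkk1, Dkk2 and Fzd2) and 4 without negative 1 (Dkk1, Dkk2, Fzd2 and Fzd3), where 4.38%, 4.51% and 3.91% of all genes tested were called higher in the second set. It was 10 without negative 2 and 6 without negative 3, where 10.4% and 7.16% of all genes were. The share of all genes thus also fell in each of the fits in which fewer members were called. Dkk2 and Fzd2 were called in all 15 fits made, these 5 included. The leukocyte, stromal and smooth muscle markers given above divide the libraries in the same way. So do the 7 podocyte markers, at 9556 and 15129 in the first set and 39501 to 330779 in the second, and the 7 nephron progenitor markers, at 575 and 1685 against 3232 to 5424. Negative 3 stood apart with the highest podocyte sum and with 60080.4 for 6 erythroid markers, which were at 903 to 3629.7 in the other libraries. The part of these cell types in the differences was not tested. In bulk libraries, fewer cells of a type and less RNA per cell cannot be told apart.

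**Figure D2:**
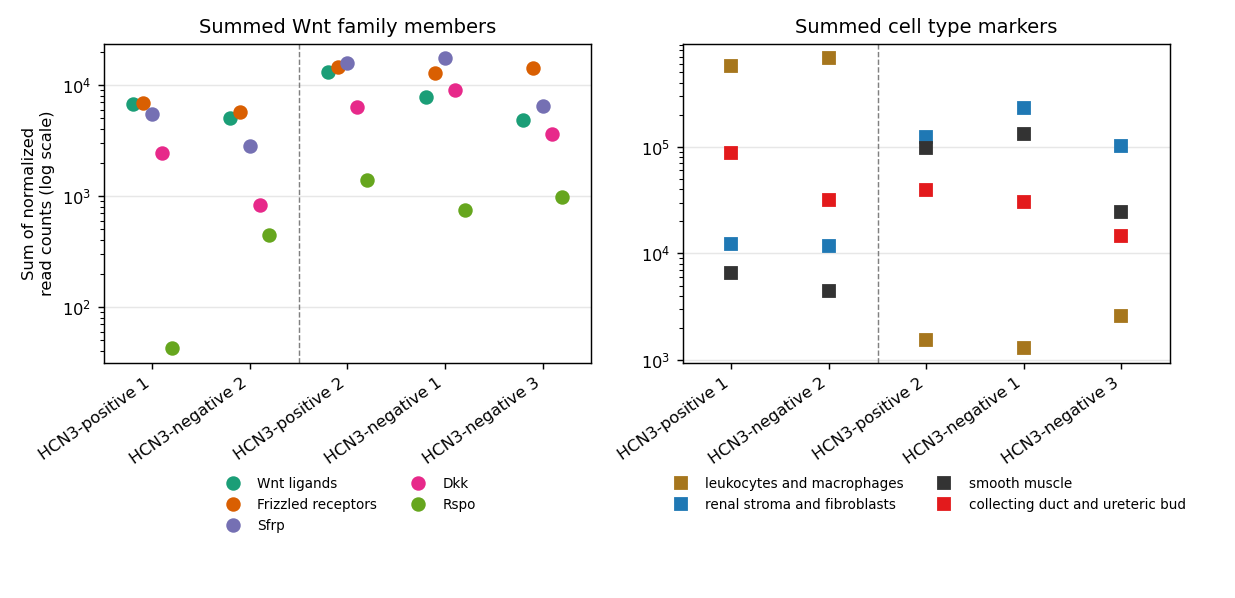
Sum of normalized read counts (log scale, vertical axis) of the members by role (left) and of 4 cell type marker lists (right) in each library (horizontal axis), with the first set left of the dashed line. The Rspo genes sum to 42.3 in the library labelled positive 1 and to 445 to 1397 in the others. The leukocyte markers are higher in the first set, and the stromal and smooth muscle markers in the second. The collecting duct list holds the members Wnt7b, Wnt9b and Wnt11.

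Summed over all 34 genes, the normalized count was 21619 and 51139 in positive 1 and 2 and 47829.8, 14832 and 30035 in negative 1, 2 and 3. The first set held both of the lowest sums. The spread was wide within each label, whose ranges overlapped. The library labelled positive 2 was the highest of the 5 for 14 members and the lowest for 0. The library labelled positive 1 was the highest for 3 members, Wnt6, Wnt7b and Wnt9b.

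Among the ligands, Wnt9b and Wnt7b were the only members of 31 with both libraries labelled positive above every library labelled negative, beside 5.34% of all genes tested. At 6.45% of members, this share is close to that of all genes and does not set the members apart. Both genes are made by ureteric bud epithelium and its derivatives, where Wnt9b induces nephron formation and Wnt7b acts in the medulla. Wnt9b (chromosome 11, 103727364 to 103749821, minus strand, mm10) had 2052 and 776 in positive 1 and 2 and 249, 496 and 411 in negative 1, 2 and 3. The difference by label was 1.77 on the log2 scale (SE 0.58), with an unadjusted limma p of 0.0276 and an adjusted p of 1.00. Wnt7b (chromosome 15, 85535437 to 85582473, minus strand) had 2866 and 776, and 761, 579 and 353. The library labelled positive 1 stood far above, while positive 2 exceeded negative 1 only narrowly. By label the log2 fold change of Wnt7b was 1.47 (SE 0.68) and its adjusted limma p 1.00.

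Without the library labelled positive 1 the log2 fold change by label was 1.06 for Wnt9b and 0.53 for Wnt7b, so most of the difference in Wnt7b came from that library. The summed markers of the collecting duct and ureteric bud were also highest in positive 1. Without the 3 members on that list, the other 11 markers summed to 82419.5 and 31823 in positive 1 and 2 and 25788, 27903 and 12336 in negative 1, 2 and 3, and their part in the result was not tested. Singly, Hsd11b2, Gata3 and Calb1 were higher in both libraries labelled positive, while the labels overlapped for the rest. Aqp2, for example, had 34676 and 3248 in positive 1 and 2 and 1033, 4826 and 2339 in negative 1, 2 and 3. Wnt11, also on that list, was lowest in positive 1. With the set as a second term of the limma fit, which was added after the data were seen, the log2 fold change by label was 1.61 for Wnt9b and 1.32 for Wnt7b, and neither passed. In the other division the fold changes of both genes had the sign opposite to most members, but the sets overlapped. Negative 2, of the first set, had 496 for Wnt9b, inside the 249 to 776 of the second set. For Wnt7b it had 579, inside 353 to 776. The log2 fold change, second set over first, was -1.23 (SE 0.70) for Wnt9b and -1.12 (SE 0.70) for Wnt7b, with adjusted limma p of 0.280 and 0.319.

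Wnt4, which drives the mesenchyme-to-epithelium transition of the nephron and is also made in medullary stroma, had the third smallest unadjusted p of the members that were higher by label. Positive 1 and 2 had 825 and 2822, and negative 1, 2 and 3 had 1274, 427 and 487. The label groups overlapped, since negative 1 exceeded positive 1. By label the log2 fold change was 1.25 (SE 0.75) and the adjusted limma p 1.00. Wnt6 differed by slightly more, at 1.34 (SE 1.02).

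Wnt11 had the highest mean level of the ligands. It is expressed at the tips of the ureteric bud, where it takes part in branching. Positive 1 and 2 had 520 and 6282, and negative 1, 2 and 3 had 3684, 2468 and 1475. The libraries labelled positive thus held both its lowest and its highest value. The log2 fold change was -0.39 (SE 1.10) by label and 1.52 (SE 0.78) for the second set over the first, and neither passed in limma (adjusted p of 1.00 and 0.231). The sign by label is not settled, since the mean was 1.34-fold higher in the libraries labelled positive and edgeR gave 0.45.

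Wnt5a and Wnt5b, ligands that often act without beta-catenin, were both lowest in the library labelled positive 1. Wnt5b had 1.41 there, which is 1 read, and 813 in positive 2, and 413, 266 and 1189.7 in the libraries labelled negative. The low value of 1 library set its limma log2 fold change by label of -3.52 (SE 2.50), which was -0.56 in edgeR. Without that library the sign turned, at 0.68. Between the sets the log2 fold change was 4.86 (SE 1.77) in limma, 2.53 in edgeR and 2.59 in the authors' deposited table. The adjusted limma p was 0.105, with an adjusted p of 0.0739 in the authors' deposited table. Wnt5a had 271 and 1193 in positive 1 and 2 and 1078, 590.4 and 616 in negative 1, 2 and 3. All 3 libraries of the second set were above both of the first for Wnt5a as for Wnt5b, but the smallest gap for Wnt5a, between 590.4 and 616, was narrow.

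Wnt9a, a close relative of Wnt9b known from joint formation, had a fold change between the sets opposite in sign to that of Wnt9b, which did not pass. Wnt9a (chromosome 11, 59306928 to 59333552) had 5.64 and 80.9 in positive 1 and 2 and 117, 18.9 and 168 in negative 1, 2 and 3. These rest on 4, 109, 131, 17 and 181 reads in the same order. Both libraries of the first set were low and did not overlap with the second. The authors' deposited table gives a 9.96-fold higher mean in the second set (adjusted p of 0.0461), and the limma log2 fold change was 3.36 (SE 0.83, adjusted p of 0.0316). In edgeR its adjusted p was 0.0594, and it passed without negative 2 but with none of the other libraries left out.

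The remaining ligands were low. Wnt6 and Wnt10a lie 6193 bases apart on chromosome 1, on the same strand, and Wnt6 is made by the ureteric bud. Wnt6 had 121 and 67.5 in positive 1 and 2 and 70.4, 43.3 and 14.0 in negative 1, 2 and 3. Wnt10a had 56.4 and 46.7, and 72.2, 18.9 and 9.30. In both genes the library labelled negative 3 was lowest and negative 2 next. Wnt8b had 0 and 72.0, and 66.8, 67.7 and 126 by label, with 0 reads in positive 1 alone. Its log2 fold change by label was -3.30 (SE 1.95) and rested on that library, being -0.20 without it. Wnt16 had 60.8 in positive 2 and 25.8 in negative 1, and at most 3.33 elsewhere. Wnt2b, an activator made by stroma, had 4.45 to 24.5.

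The 3 untested ligands had few reads. Wnt2 had 20 reads in positive 2, 7 in negative 3, 1 in negative 2 and 0 in the others. Wnt7a had 14 reads in positive 2, 10 in negative 2 and 0 in the other libraries. Wnt3, which lies 24328 bases from Wnt9b on the opposite strand, had 6 reads in positive 2 and 1 in negative 3. A count of 0 allows up to 3 reads, a normalized count of 2.23 to 4.23 by library, for counting error only.

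Of the Frizzled receptors, 3 of 10 passed in limma as higher in the second set and 0 as lower, and the median log2 fold change was 1.37. These shares stand beside 9.88% and 10.6% of all genes. By label the log2 fold change was above 0 for 4 and below 0 for 6 in limma (median -0.16), but above 0 for 6 and below 0 for 4 in edgeR and DESeq2. Fzd2 (chromosome 11, 102604396 to 102608058), a receptor for Wnt5a among others, had 114 and 1381 in positive 1 and 2 and 929, 233 and 1866 in negative 1, 2 and 3. Both libraries of the first set were far below the second. The authors' deposited table gives an 8.02-fold higher mean in the second set (adjusted p of 0.000131), and limma a log2 fold change of 3.03 (SE 0.45, adjusted p of 0.00528).

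Fzd1 (chromosome 5, 4753839 to 4758035, minus strand) is a receptor of the ureteric mesenchyme. It had 1131 and 3148 in positive 1 and 2 and 3453, 448 and 1987 in negative 1, 2 and 3. The sets did not overlap and each label held a low and a high library. Its mean was 3.63-fold higher in the second set in the authors' deposited table (adjusted p of 0.00113). In limma the log2 fold change was 1.97 (SE 0.44, adjusted p of 0.0217), and the adjusted p lay above 0.05 when positive 2, negative 1 or negative 2 was left out (0.0874 to 0.0892).

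Fzd4 (chromosome 7, 89404355 to 89413134), which also serves as the receptor of norrin in vessels, differed by less. Positive 1 and 2 had 1690.1 and 2799, and negative 1, 2 and 3 had 2952, 1552 and 3794. The sets did not overlap. The limma log2 fold change was 0.96 (SE 0.21, adjusted p of 0.0220), whereas the authors' deposited table gives an adjusted p of 0.106. When a library was left out, Fzd4 passed only without negative 3 (0.0437), and the adjusted limma p was 0.0515 to 0.0922 without any of the others. Endothelial markers, 8 of 8 in the table, summed to 7281 and 8053 in the first set and 28893 to 110409 in the second, and their part in the result was not tested.

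The other receptors did not pass. Fzd3, a planar polarity receptor, had 244 and 1718 in positive 1 and 2 and 673, 540.5 and 1659 in negative 1, 2 and 3, with an adjusted limma p of 0.0605 between the sets. Fzd10 had 32.4 and 315, and 296, 72.1 and 103, with an adjusted limma p of 0.0944. Both were lowest in the library labelled positive 1. Fzd6, Fzd7 and Fzd8 lay closer together, with log2 fold changes between the sets of 0.61, 0.44 and 0.90. Fzd5, an epithelial receptor, was the only receptor with a log2 fold change under 0 (-0.21), at 127 and 96.4 against 58.8, 114 and 199 by label. Fzd9 had 0 to 40.1.

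**Figure D3:**
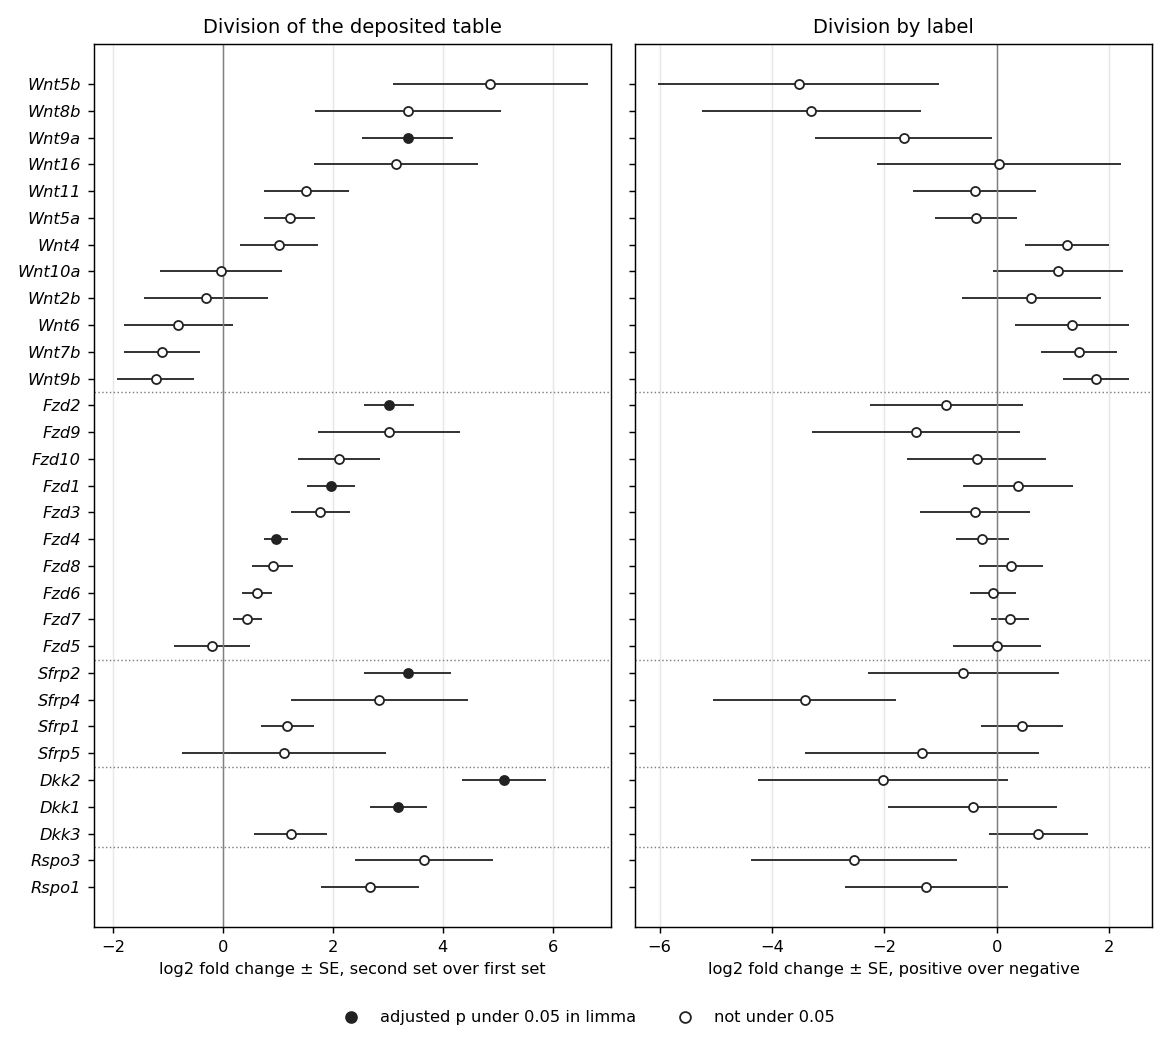
Log2 fold change with its SE (horizontal axes) of the 31 genes tested (rows, grouped by role), for the second set over the first (left) and labelled positive over labelled negative (right). Filled points had an adjusted p under 0.05 in limma. The 7 filled points are all on the left, from 0.96 for Fzd4 to 5.12 for Dkk2, and Wnt7b and Wnt9b lie below 0 on the left and above 0 on the right.

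Of the roles, the Dkk genes had the largest median log2 fold change between the sets, 3.19, beside 3.17 for Rspo, 2.01 for Sfrp, 1.37 for Frizzled and 1.12 for Wnt. Dkk1 and Dkk2 bind the Lrp5 and Lrp6 co-receptors, and Dkk1 is itself a known beta-catenin target. Dkk2 (chromosome 3, 132085292 to 132180304) had 25.4 and 1873 in positive 1 and 2 and 3796, 142 and 1356 in negative 1, 2 and 3. Its mean was 28.0-fold higher in the second set in the authors' deposited table (adjusted p of 0.00246). The limma log2 fold change of 5.12 (SE 0.77, adjusted p of 0.00528) was the largest among the members. Over the fits that left out 1 library it was 3.90 to 6.34, with an adjusted limma p of 0.0120 to 0.0347.

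Dkk1 (chromosome 19, 30545863 to 30549665, minus strand) had 81.8 and 1734 in positive 1 and 2 and 1077, 173 and 700.4 in negative 1, 2 and 3. The second set was again above the first without overlap. The authors' deposited table gives a 9.18-fold higher mean (adjusted p of 0.00463), and limma a log2 fold change of 3.19 (SE 0.52, adjusted p of 0.00728). Without the library labelled positive 1 the adjusted limma p was 0.0577. By label, the limma log2 fold change was -2.02 (SE 2.23) for Dkk2. For Dkk1 it was -0.43 (SE 1.502) in limma but 0.53 in edgeR, and the mean was 1.40-fold higher in the libraries labelled positive.

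Dkk3, a relative of Dkk1 whose action on Wnt signalling is less clear, had another pattern. Positive 1 and 2 had 2349.8 and 2672, and negative 1, 2 and 3 had 4109, 515 and 1579. The low library was negative 2, while positive 1 stood above a library of the second set. Between the sets the log2 fold change was 1.23 (SE 0.67) and the adjusted limma p 0.252.

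The promoters of Dkk1, Dkk2 and Fzd1 are shown because these genes are among those that passed in both tests of the division. Those of Wnt9a and Wnt9b are shown because the fold changes of these related ligands between the sets had opposite signs, although Wnt9b did not pass. Each line gives the 250 bases upstream of the RefSeq start site (GRCm38.p6), 5′ to 3′ on the strand of the gene. Capitals mark the TCF/LEF core CTTTGA, the TATA box TATAAA and the GC box GGGCGG on either strand.
Dkk1: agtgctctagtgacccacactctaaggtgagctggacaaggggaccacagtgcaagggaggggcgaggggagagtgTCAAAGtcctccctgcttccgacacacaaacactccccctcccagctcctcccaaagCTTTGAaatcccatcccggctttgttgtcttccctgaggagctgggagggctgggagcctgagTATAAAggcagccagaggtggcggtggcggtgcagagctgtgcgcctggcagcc
Dkk2: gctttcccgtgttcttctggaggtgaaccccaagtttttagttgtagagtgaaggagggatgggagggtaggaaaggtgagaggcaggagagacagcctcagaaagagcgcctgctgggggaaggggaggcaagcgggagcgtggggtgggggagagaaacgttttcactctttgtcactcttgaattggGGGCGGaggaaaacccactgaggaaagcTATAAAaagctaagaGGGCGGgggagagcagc
Fzd1: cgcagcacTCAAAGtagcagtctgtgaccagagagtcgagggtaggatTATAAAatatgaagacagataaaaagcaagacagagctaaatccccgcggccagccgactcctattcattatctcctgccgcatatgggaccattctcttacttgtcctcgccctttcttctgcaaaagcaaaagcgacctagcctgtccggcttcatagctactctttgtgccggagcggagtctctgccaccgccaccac
Wnt9a: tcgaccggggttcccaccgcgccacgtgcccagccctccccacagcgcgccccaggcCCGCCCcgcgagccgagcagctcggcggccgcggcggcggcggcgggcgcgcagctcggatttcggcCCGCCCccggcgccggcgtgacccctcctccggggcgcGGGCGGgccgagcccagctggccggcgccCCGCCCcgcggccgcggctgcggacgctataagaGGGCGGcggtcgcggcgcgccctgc
Wnt9b: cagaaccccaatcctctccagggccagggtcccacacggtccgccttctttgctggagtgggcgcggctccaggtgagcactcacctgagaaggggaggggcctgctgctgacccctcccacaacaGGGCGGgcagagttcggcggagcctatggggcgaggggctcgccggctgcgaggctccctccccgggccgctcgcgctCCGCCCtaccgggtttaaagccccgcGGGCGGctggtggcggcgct
The windows lie at chr19:30549497-30549746 (minus strand), chr3:132085042-132085291 (plus), chr5:4758217-4758466 (minus), chr11:59306680-59306929 (plus) and chr11:103749822-103750071 (minus). Gene positions given above are from GENCODE, whose start differs from that of RefSeq for Dkk1, Fzd1 and, slightly, Wnt9a. The Dkk1 window overlaps the gene as GENCODE places it (up to 30549665), and its TATAAA lies inside that gene. The Fzd1 window begins at 4758217, apart from the GENCODE gene (up to 4758035).

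Dkk1, Dkk2 and Fzd1 each held 1 TATAAA, beginning at -54, -32 and -202 from the RefSeq start site. Dkk1 held 2 TCF/LEF cores and Fzd1 held 1, while Dkk2 held 0. Wnt9a held 5 GC boxes and Wnt9b held 3, with 0 copies of the other motifs in both. A promoter was found for 23 of 34 members, in 26 windows. TATAAA occurred in 4 of these windows (15.4%) and in 12.4% of all 32851 promoter windows, and CTTTGA in 4 (15.4%) and 13.8%. GGGCGG occurred in 18 (69.2%) and in 32.7% of all. These counts describe letters in a window and were not tested. The fraction of G and C was 60.8%, 55.6% and 51.2% in Dkk1, Dkk2 and Fzd1, and 84.4% and 72.0% in Wnt9a and Wnt9b.

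Of the Sfrp genes, which bind Wnt ligands and limit their reach, Sfrp1 and Sfrp2 had the highest mean levels per kb of exon over the 5 libraries. They were the leading pair in positive 2, negative 1 and negative 3, whereas Sfrp2 ranked 12 of 34 in positive 1 and Wnt11 led in negative 2. Sfrp2 (chromosome 3, 83766321 to 83774316) had 233 and 8474 in positive 1 and 2 and 6706, 847 and 1669.7 in negative 1, 2 and 3. The second set was above the first without overlap, although its own values differed several-fold. Its mean was 10.4-fold higher in the second set in the authors' deposited table without passing (adjusted p of 0.0729). It passed in limma, with a log2 fold change of 3.36 (SE 0.80, adjusted p of 0.0274). When a library was left out, it passed only without negative 3, and the highest adjusted p was 0.197, without positive 1.

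Sfrp1 (chromosome 8, 23411502 to 23449632) had 5279 and 7397 in positive 1 and 2 and 10518, 1917 and 4712 in negative 1, 2 and 3. The sets overlapped, since positive 1 exceeded negative 3. Its log2 fold change was 1.17 (SE 0.49) between the sets and 0.45 (SE 0.73) by label, with adjusted limma p of 0.145 and 1.00. Sfrp4 had 0 and 24.5 in positive 1 and 2, below the 88.2, 40.0 and 41.9 of negative 1, 2 and 3. By label the log2 fold change was -3.42 (SE 1.63). Sfrp4 was the only member with both libraries labelled positive below every library labelled negative. This is 3.23% of members, no more than the 5.44% of all genes tested, and its adjusted limma p was 1.00. Sfrp5 had 1.86 to 37.7 in 4 libraries and 0 reads in positive 1.

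Both R-spondin genes were lowest in the library labelled positive 1. Rspo3 (chromosome 10, 29452416 to 29535867, minus strand), which amplifies Wnt signals through Lgr receptors, had 2.82 and 219.6 in positive 1 and 2 and 212, 85.5 and 258 in negative 1, 2 and 3. The 3 libraries of the second set were within 212 to 258, and the 2 of the first set were far apart. Its mean was 5.21-fold higher in the second set in the authors' deposited table (adjusted p of 0.0495). In limma the log2 fold change was 3.66 (SE 1.26) and the adjusted p 0.0879, and it was 0.0126 without negative 2. Rspo1 had 39.5 and 1177, and 543, 359.6 and 714. The sets did not overlap for Rspo1 either, with an adjusted limma p of 0.0816 and an adjusted p of 0.0870 in the authors' deposited table.

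Per kb of exon, which allows levels of different genes to be compared, the order was led by modulators. Mean levels over the 5 libraries were 1666 normalized reads per kb for Sfrp2, 1364 for Sfrp1, 698 for Wnt11, 668 for Dkk3, 485 for Fzd1 and 476 for Fzd7. Their ranges over the libraries overlapped, so that neighbours in this order cannot be ranked. The most abundant ligands after Wnt11 were Wnt4 (278), Wnt7b (218), Wnt5b (202) and Wnt9b (176). The lowest members were Wnt3 (0.350), Wnt7a (1.35) and Wnt2 (1.99). In the library labelled positive 1 the leading ligand per kb was Wnt7b, followed by Wnt9b. In positive 2, negative 1 and negative 2 it was Wnt11, and in negative 3 it was Wnt5b.

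**Figure D4:**
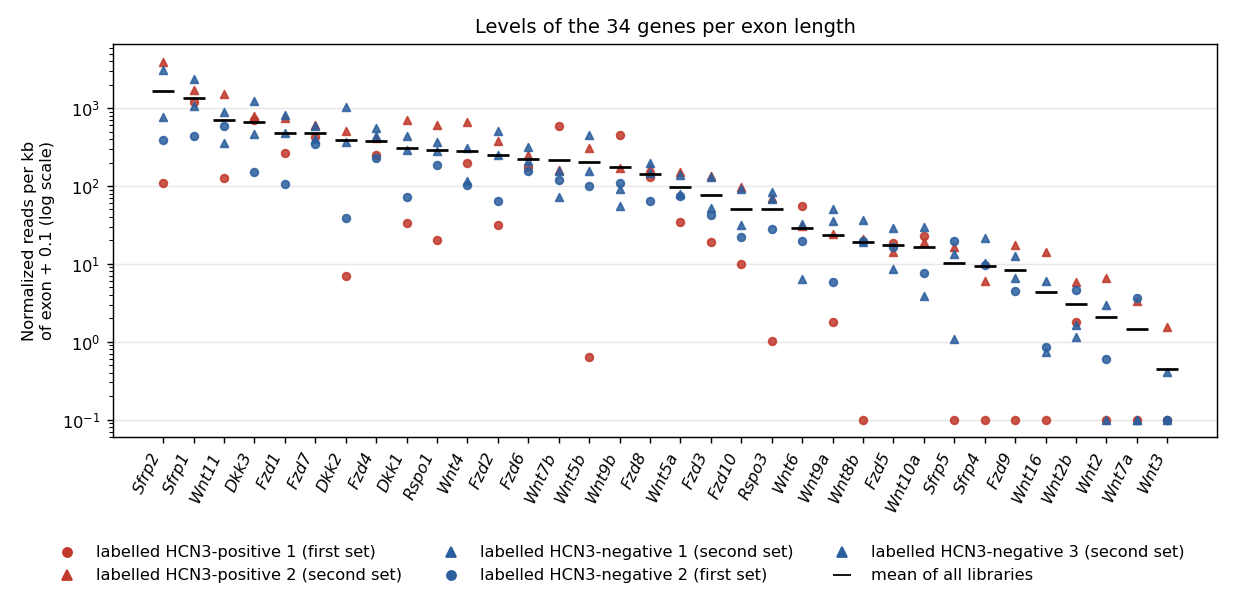
Normalized reads per kb of exon plus 0.1 (log scale, vertical axis) of the 34 genes, ordered by their mean (horizontal axis). Points are single libraries, coloured by label and shaped by set, and bars are means. Sfrp2 leads with a mean of 1666 although its libraries span more than an order of magnitude, and the library labelled positive 1 alone is lowest for 17 of 34 genes.

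The rest of the pathway was read from lists set with earlier results of these data known. By label, limma called 0 genes of any of these lists, and 0 had an unadjusted p under 0.05. Between the sets, all genes of these lists that passed were higher in the second set, and each count below stands beside 9.88% of all genes in limma and 6.09% in the authors' deposited table. Of the co-receptors and other Wnt-binding receptors, 4 of 6 passed in limma and 4 of 6 in the authors' deposited table, with a median log2 fold change of 1.96. They were the kinase-like receptors Ryk, Ptk7, Ror1 and Ror2. Ror2, a receptor of Wnt5a, had 103 and 1227 in positive 1 and 2 and 952, 245 and 781 in negative 1, 2 and 3. In limma the log2 fold change was 2.60 (SE 0.47, adjusted p of 0.00989).

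Of the TCF and LEF factors and their partners, 4 of 9 passed in each test, and these were Tcf7l1, Lef1, Tcf7 and Pygo1. Lef1, a DNA-binding partner of beta-catenin, had 124 and 1049.7 in positive 1 and 2 and 656, 141 and 785 in negative 1, 2 and 3. The limma log2 fold change was 2.61 (SE 0.38, adjusted p of 0.00458). Of the feedback and target genes of beta-catenin, a list that shares Lef1, Tcf7, Axin2, Apcdd1, Notum, Lgr5, Rnf43 and Znrf3 with others, 8 of 16 passed in each test. It also shares Tbx18 with the stromal markers. The genes that passed were not the same in both tests. Cdkn1c passed in limma (adjusted p of 0.00900) but not in the authors' deposited table (0.291). Notum passed in that table (adjusted p of 0.0312) but not in limma (0.0764). Nkd2, an inhibitor induced by Wnt signals, had 180.4 and 1312, and 1321, 79.9 and 637. Axin2, the most widely used readout of beta-catenin signalling, had only 22.6 and 86.0, and 57.9, 5.55 and 49.3, with a limma adjusted p of 0.116.

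Of the other secreted or membrane modulators, 3 of 17 tested passed in limma (Gpc3, Apcdd1 and Tmem88) and 4 of 18 in the authors' deposited table. Of the planar cell polarity genes, which include the members Fzd3 and Fzd6, 4 of 13 passed in limma (Prickle2, Daam2, Prickle1 and Vangl1) and 3 in the authors' deposited table. Of the signal transduction genes 1 of 14 passed in limma, a share no higher than that of all genes. It was Ctnnb1, which encodes beta-catenin, with a log2 fold change of 0.86 (SE 0.17, adjusted p of 0.0139). The authors' deposited table gives it an adjusted p of 0.123. Of the R-spondin receptors and their E3 ligases 0 of 5 passed, and of the Wnt secretion genes 0 of 2. Wls, which carries Wnt proteins to the surface, was at 10032 and 7629 in positive 1 and 2 and 9425, 7763 and 9381 in negative 1, 2 and 3. The log2 fold change of Wls was -0.01 in both comparisons (SE 0.20 between the sets and 0.24 by label).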

How the data were processed

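RNA was measured in 5 libraries, grouped by title. The submitters' processing notes name the build mm10 and, among other tools, TopHat2 2.0.11, HTSeq 0.6.1p2 and DESeq 1.18.0. The annotation behind the counts is not given in the sources. The deposited signal columns hold the authors' reads divided by 1 size factor per library, as the values show. Per the file headers, the deposited table also holds the authors' fold (a ratio of means), its log2, and a raw and an adjusted p-value. The 2 columns of group means were not used. Its 3 summary rows were left out; reads in no gene made up 8.58% to 14.0% of all reads. The smallest value above 0 in a column is worth 1 read there, and on that scale 100% of values were whole reads within 0.01.

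The main test was limma 3.58.1 (trend, R 4.3.3) on log2(normalized count + 1), for the 16579 genes averaging 5 or more. Fold changes are on that scale: the added 1 shrinks those of low genes, while 1 library near 0 weighs more than in a ratio of means, so that some limma values exceed those of the count models. P-values were adjusted by Benjamini-Hochberg and called under 0.05. It was run by label and for the division of the authors' table, which was derived from its fold column within a relative tolerance of 0.01. edgeR 4.0.16 (quasi-likelihood) and DESeq2 1.42.0 were run on the recovered reads, where between the sets they called 2824 and 4526 genes. The procedure was also run on simulated data with genes drawn independently of each other. Those data lack the cell type differences of these libraries, and no result above rests on them. The authors' p-values and the limma values for their division rest on the same libraries. Alternatives were pseudocounts, filters, TMM scaling, a replicate block and leaving out each library; a fit with label and set together was added after the data were seen. Exon lengths and gene positions came from GENCODE M21 (GRCm38, that is mm10). The chemistry is not stated to keep strand: exons of Fzd5, Fzd6, Rspo3, Sfrp2, Wnt11, Wnt5a and Wnt7b share 3.15% to 17.8% of their bases with genes on the opposite strand.

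Members and lists were chosen with earlier results of these data known. Values are given for members past 0.05 in either test of the authors' division, for the 3 with the smallest p in each direction by label, for those whose label groups do not overlap, and for the others by role; of the pathway lists, at most 4 a list by p.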

Additional observations from a re-analysis of the deposited data

How the results depend on the processing

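By label, the counts of 0 members higher and 0 lower held under all 14 alternatives run. The median log2 fold change of the members by label ranged from -1.79 to 0.95 when single libraries were left out, and was 0.18 in edgeR and 0.15 in DESeq2. The filter was applied anew whenever a library was left out, so these medians, in both comparisons, cover 31 to 33 members. Wnt5b by label ranged from -7.72 to 0.68 over these fits and changed sign without the library labelled HCN3-positive 1; the cause was not tested. For the division of the authors' deposited table, 7 members were higher in limma with both other pseudocounts, both other filters, TMM scaling and the label as a second term, 6 in edgeR, 9 in DESeq2, and 3 to 10 with single libraries left out, which also moved the median from 1.20 to 2.32. Where this left 1 library in a group, that library is assumed to vary like the others. With the replicate number as a block, 10 members were called between the sets and the median was 2.08 (2.085), and 0 were called by label. Wnt9a was not among these 10 (log2 fold change 3.10, adjusted limma p 0.131). Between the sets, libraries of equal number showed no sign of pairing: the correlation of their deviations from the group means was 0.04 and -0.002. By label it was -0.53 and -0.69, which cannot show pairing, since libraries of equal number lie in opposite sets. Members with few reads, such as Wnt2, Wnt3 and Wnt7a, are limited by depth.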
